A study of Mus musculus and Homo sapiens with 14 samples.

Results

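The 49 genes described here encode the machinery that moves a new secretory protein into the endoplasmic reticulum (ER), attaches N-linked glycans to it and carries it between the ER and the Golgi. They were chosen by symbol from a fixed list, with the same symbols in capitals for human genes. All 49 were present among 26221 named genes of the mouse table and all 49 among 27945 named genes of the human table. They fall into 8 roles: 5 subunits of the signal recognition particle, 7 of the Sec61 translocon and its helpers, 4 of the TRAP complex, 5 of signal peptidase, 6 of oligosaccharyltransferase, 8 of the COPII coat, 9 cargo and retrieval receptors, and 5 of the COPI coat.

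Gene expression was sequenced in 8 groups, 14 libraries in all, to ask what the transcription factor IRF4 does in plasma cells. Splenic plasma cells were sorted from chimeras whose donor marrow was Irf4 flox/- (2 libraries) or Irf4 flox/+ (2 libraries). The marrow had been given with uMT marrow, which makes no B cells of its own, to congenically marked hosts, which received tamoxifen on days 1, 2, 7 and 8 and were harvested on day 14. Both groups carried a floxed Irf4 allele and received tamoxifen, the strain was C57BL/6, and the labels name neither the Cre driver nor the animals' age. MPC-11, a plasmacytoma line of the mouse, and MM.1S, a myeloma line of human origin, were given Cas9 and either a guide RNA against IRF4 (2 libraries each, labelled Irf4 -/-) or an empty vector (2 libraries each, labelled WT), were treated with doxycycline and were sorted on day 3 after deletion. Wild-type bone marrow plasma cells and wild-type splenic follicular B cells gave 1 library each. Nothing in the labels says whether the 2 libraries of a group came from separate animals or cultures, so p-values measure only the spread between these libraries.

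Depth was 18738283 to 27003585 counts in the mouse libraries and 19317115 to 21572315 counts in the human libraries. Values below are CPM, counts scaled to library size with TMM factors within a comparison, unless a sentence says otherwise. Irf4 itself stood at 82.6 and 99.8 CPM in flox/- plasma cells, against 114 and 53.8 CPM in flox/+ plasma cells, so the groups overlapped; a count over the whole gene does not resolve a deleted stretch and does not check the label. Irf4 stood at 276 and 146 CPM with the guide in MPC-11, against 467 and 496 CPM with the empty vector. IRF4 stood at 142 and 191 CPM with the guide in MM.1S, against 489 and 434 CPM with the empty vector. The groups did not overlap in either line.

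Proteins bound for secretion carry a signal peptide that the signal recognition particle reads on the ribosome. The Sec61 channel passes the chain into the ER, signal peptidase removes the signal, and oligosaccharyltransferase adds glycans to asparagine. COPII vesicles carry cargo forward to the Golgi, and COPI vesicles and KDEL receptors bring escaped ER proteins back. Plasma cells enlarge this apparatus to secrete antibody, and the transcription factor Xbp1, which binds unfolded protein response elements, is known to drive many of its genes.

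The mouse promoters were read for short motifs of that response and of interferon regulatory factors, since most members differed in the same direction in the mouse comparisons. RefSeq promoter sequences (GRCm38.p6, 250 bases before to 50 after the start) were found for 39 of the 49 members, which gave 42 promoters. The unfolded protein response element, TGACGTGG on either strand, occurred in 5 of the 42 member promoters (11.9%), against 0.676% of all 32851 promoters. All 5 sites follow, with 11 bases on either side and the element in capitals; CCACGTCA is the element read on the opposite strand.
Sec24d, chr3:123267459-123267488, + strand: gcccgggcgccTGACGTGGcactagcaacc
Copb1, chr7:114254690-114254719, - strand: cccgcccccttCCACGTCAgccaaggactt
Copb2, chr9:98563713-98563742, + strand: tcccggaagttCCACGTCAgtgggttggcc
Sec23a, chr12:59011993-59012022, - strand: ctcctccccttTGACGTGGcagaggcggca
Kdelr3, chr15:79516367-79516396, + strand: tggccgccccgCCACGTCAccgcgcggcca
The element began 30, 28, 26 and 7 bases before the start in Kdelr3, Copb1, Sec24d and Copb2, and 6 bases after it in Sec23a.

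The 5-base motif CCACG, which also lies inside TGACGTGG read on the opposite strand, occurred in 27 of the 42 member promoters (64.3%) and in 32.8% of all promoters. Member promoters averaged 60.1% G and C, against 53.8% over all promoters, and no allowance was made for this. The ER stress response element (CCAAT, then 9 bases of any kind, then CCACG, either strand) occurred in 0 of the 42, against 0.119% of all promoters. The interferon response element (GAAA, any 2 bases, GAAA, either strand) occurred in 4 (9.52%), those of Cope, Ddost, Sec23b and Stt3a, against 3.44%, and the ETS-IRF composite (GGAA, any 2 bases, GAAA) in 0, against 2.72%. A match says only that these letters are present in the window. The 5 genes with the unfolded protein response element had splenic log2 fold changes from -1.84 (Kdelr3) to -0.11 (Copb1). Members with and without a motif were not compared, so no link to expression was tested.

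Sequences of the 250 bases before the start are given for 3 members that had the smallest DESeq2 adjusted p in one of the comparisons (for Kdelr1, its human counterpart in MM.1S), with CCACG or its reverse CGTGG in capitals. Ssr4 and Kdelr1 held neither in this window, and Tram2 held 1.
Ssr4, chrX:73786773-73787022, + strand: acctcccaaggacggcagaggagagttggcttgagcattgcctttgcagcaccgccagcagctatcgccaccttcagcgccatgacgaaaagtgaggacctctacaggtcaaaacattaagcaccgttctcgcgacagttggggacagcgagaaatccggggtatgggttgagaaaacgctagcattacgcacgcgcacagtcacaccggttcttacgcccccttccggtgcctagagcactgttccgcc
Kdelr1, chr7:45872590-45872839, + strand: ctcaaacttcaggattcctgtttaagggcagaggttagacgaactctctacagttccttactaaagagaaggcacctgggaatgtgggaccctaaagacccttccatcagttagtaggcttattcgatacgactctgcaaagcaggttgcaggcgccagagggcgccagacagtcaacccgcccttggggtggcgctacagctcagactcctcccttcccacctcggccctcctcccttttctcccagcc
Tram2, chr1:21079226-21079475, - strand: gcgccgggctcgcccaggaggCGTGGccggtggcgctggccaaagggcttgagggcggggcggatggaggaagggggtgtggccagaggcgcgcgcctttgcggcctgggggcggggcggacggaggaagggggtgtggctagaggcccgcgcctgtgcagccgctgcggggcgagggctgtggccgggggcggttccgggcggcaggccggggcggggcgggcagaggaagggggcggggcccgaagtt

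The members were lower in flox/- than in flox/+ splenic plasma cells by TMM scaling, moderately lower with the guide in MPC-11 and little different with the guide in MM.1S. In the spleen, 47 of 49 members had a log2 fold change below 0, against 45.7% of all 11887 genes tested, and the median was -0.78 for the members and 0.09 for all genes. In MPC-11 the numbers were 44 of 48, against 51.5% of 10670 genes, with medians of -0.48 and -0.02. In MM.1S they were 36 of 49, against 49.3% of 12696 genes, with medians of -0.09 and 0.01. No member passed an adjusted p of 0.05 by edgeR's quasi-likelihood test in any of the 3 comparisons, where 0%, 0.0187% and 0.00788% of all genes passed, so no single member is called changed by that test.

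**Figure D1:**
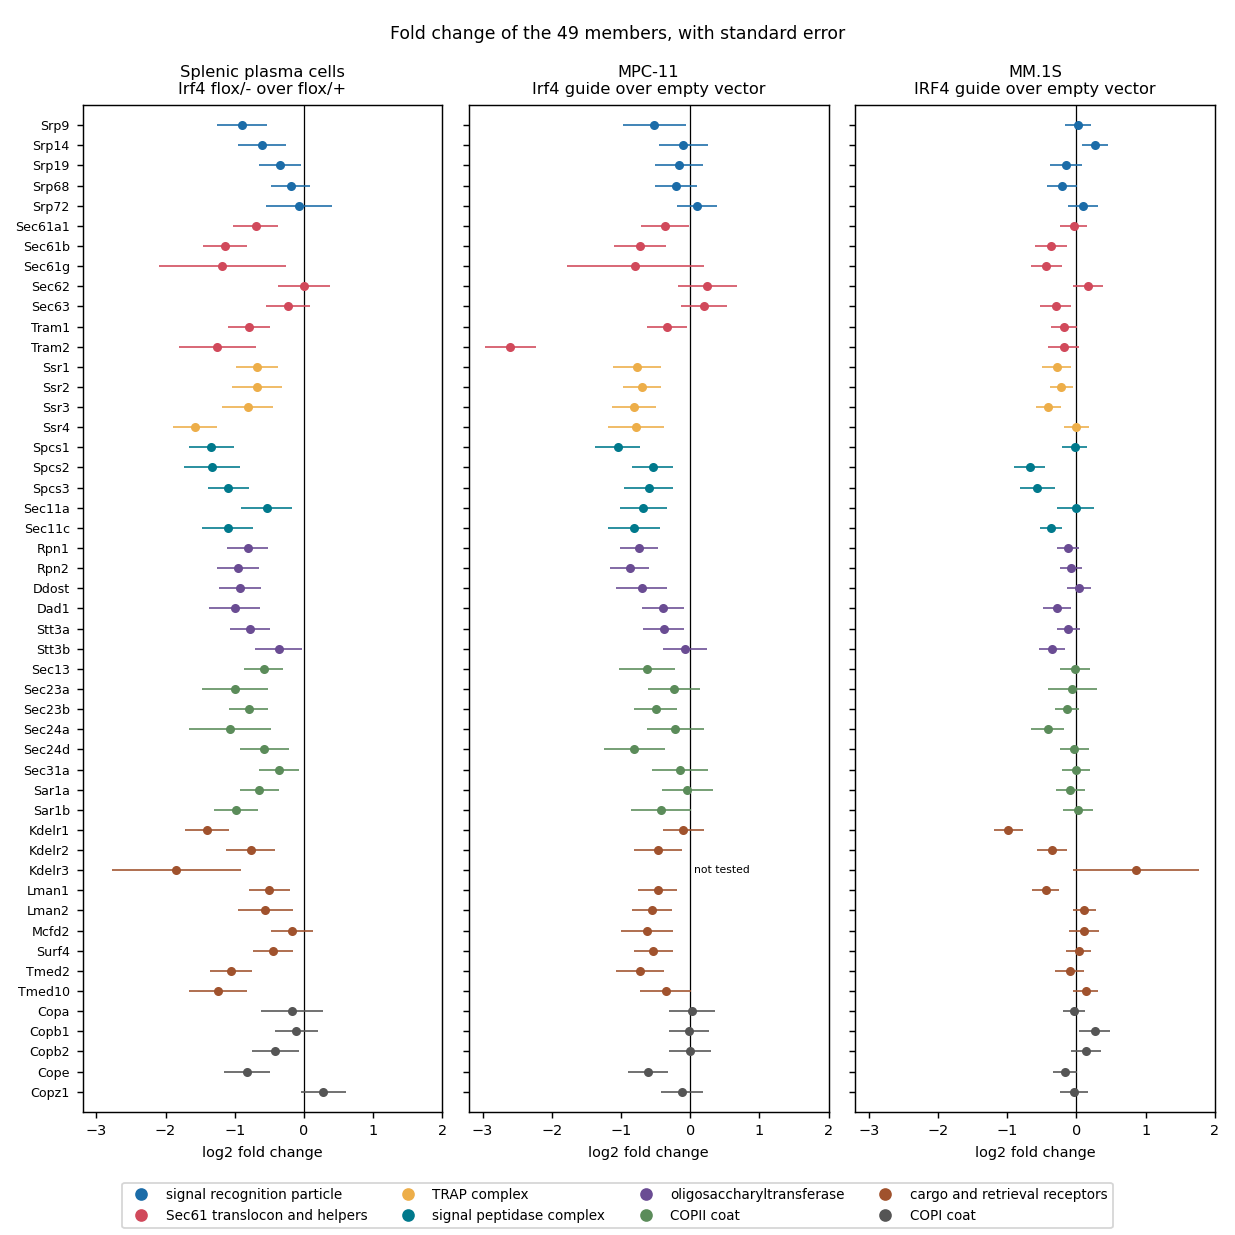
Log2 fold change of each member with its standard error (edgeR, n = 2 libraries per group), IRF4 targeted over control, in the 3 comparisons, ordered and coloured by role. In splenic plasma cells 47 of 49 points lie below 0 and in MM.1S most lie near 0.

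In the spleen, 17 members were lower at an unadjusted edgeR p under 0.05, against 3.85% of all genes, and 0 were higher, against 8.63%. DESeq2, run as an alternative, called 8 members lower at an adjusted p under 0.05, against 1.7% of all genes: Ssr4, Spcs1, Spcs2, Spcs3, Rpn2, Ddost, Kdelr1 and Tmed2. The 2 flox/- libraries lay below both flox/+ libraries for 38 members, against 18.3% of all genes, and above both for 1 member, Copz1, against 25.7%. DESeq2 called 0 members higher, against 3.64%, and 15 members had a log2 fold change of -1 or lower, against 7.82%. In 1 edgeR fit over the 10 mouse libraries 0 members were called lower in the spleen, against 0%, and 0 in MPC-11, against 0.0138%.

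The signal recognition particle had a median log2 fold change of -0.34 over its 5 members, the closest to 0 of the roles other than COPI. Srp9, one of the subunits that pause translation, stood at 49.1 and 30.1 CPM in flox/- cells, against 66.5 and 80.4 CPM in flox/+ cells, and the groups did not overlap. Srp14, its partner, stood at 73.8 and 58.5 CPM in flox/- cells, against 79.0 and 122 CPM in flox/+ cells, a log2 fold change of -0.61 ± 0.35 (SE, edgeR). That value was -0.26 without flox/+ library b and -0.89 without flox/+ library a. Srp72 overlapped between the groups, at 41.4 and 45.4 CPM in flox/- cells against 64.7 and 26.7 CPM in flox/+ cells.

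The Sec61 channel and its helpers had a median of -0.79. Sec61a1, the pore subunit, stood at 365 and 391 CPM in flox/- cells, against 698 and 529 CPM in flox/+ cells. Sec61b, a small subunit, stood at 45.2 and 32.0 CPM in flox/- cells, against 85.5 and 84.6 CPM in flox/+ cells, with a log2 fold change of -1.14 ± 0.32 (SE, adjusted p = 0.283 by edgeR). Both genes were lower in each flox/- library than in each flox/+ library. Sec62 and Sec63, which assist translocation after translation, overlapped between the groups. Tram2, which resembles the translocating chain protein Tram1, stood at 4.55 and 10.5 CPM in flox/- cells, against 20.5 and 15.2 CPM in flox/+ cells. Mouse Sec61g was near the filter, at 0.784 to 2.87 CPM, and is uncertain.

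The TRAP complex sits beside the channel and had a median of -0.74. Ssr4, one of its subunits, stood at 238 and 189 CPM in flox/- cells, against 615 and 661 CPM in flox/+ cells. Its log2 fold change was -1.58 ± 0.32 (SE, adjusted p = 0.275 by edgeR and 8.9e-05 by DESeq2), and no member had a smaller p by either tool. The other 3 TRAP members had log2 fold changes between -0.81 and -0.68. Signal peptidase had the lowest median of the 8 roles, -1.10. At an unadjusted p under 0.05 by edgeR, 4 of its 5 members were lower, against 3.85% of all genes. Spcs1, an accessory subunit, stood at 96.2 and 71.3 CPM in flox/- cells, against 191 and 233 CPM in flox/+ cells, with a log2 fold change of -1.34 ± 0.33 (SE, adjusted p = 0.275 by edgeR and 0.00805 by DESeq2). Sec11c, one of the catalytic subunits, stood at 284 and 195 CPM in flox/- cells, against 422 and 605 CPM in flox/+ cells. Spcs2 stood at 243 and 185 CPM in flox/- cells, against 388 and 686 CPM in flox/+ cells. Spcs3 stood at 120 and 114 CPM in flox/- cells, against 234 and 264 CPM in flox/+ cells. For all 4 of these signal peptidase members the groups were apart, whereas Sec11a, the other catalytic subunit, overlapped. Spcs2 and Tmed10 have pseudogenes in the mouse that could share reads with them, so their counts are less certain.

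All 6 oligosaccharyltransferase members were lower in both flox/- libraries than in either flox/+ library, with a median of -0.87. Rpn2, a ribophorin subunit, stood at 214 and 229 CPM in flox/- cells, against 388 and 469 CPM in flox/+ cells, a log2 fold change of -0.95 ± 0.30 (SE, adjusted p = 0.299 by edgeR and 0.0444 by DESeq2). Ddost, a subunit of the same enzyme, stood at 422 and 397 CPM in flox/- cells, against 714 and 840 CPM in flox/+ cells. Stt3a, the catalytic subunit that works beside the channel, had a log2 fold change of -0.78, and Stt3b, the other catalytic subunit, -0.36.

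The vesicle coats are given side by side. All 8 COPII members were lower in both flox/- libraries, with a median of -0.72. Sar1b, a GTPase that starts the coat, stood at 24.1 and 22.0 CPM in flox/- cells, against 41.2 and 49.7 CPM in flox/+ cells. Sar1a, its relative, stood at 86.0 and 87.6 CPM in flox/- cells, against 133 and 138 CPM in flox/+ cells. The COPI median was -0.17, with 3 of 5 members overlapping. Cope stood at 304 and 287 CPM in flox/- cells, against 429 and 616 CPM in flox/+ cells. Copz1 stood at 43.0 and 38.6 CPM in flox/- cells, against 38.3 and 28.8 CPM in flox/+ cells. Copz1 and Sec62 were the members whose fold change was not below 0, and no test set the 2 coats against each other.

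Among the cargo and retrieval receptors, with a median of -0.77, Kdelr1, a receptor that returns KDEL-tagged ER proteins, stood at 24.7 and 19.7 CPM in flox/- cells, against 60.4 and 57.1 CPM in flox/+ cells. Its log2 fold change was -1.40 ± 0.32 (SE, adjusted p = 0.275 by edgeR and 0.00795 by DESeq2). Tmed2, a p24 cargo receptor, stood at 62.2 and 54.9 CPM in flox/- cells, against 108 and 135 CPM in flox/+ cells, with DESeq2 adjusted p = 0.0481. Lman2, a lectin that escorts glycoproteins, stood at 362 and 281 CPM in flox/- cells, against 340 and 606 CPM in flox/+ cells, and overlapped. Kdelr3 stood at 2.13 and 4.14 CPM in flox/- cells, against 3.57 and 19.0 CPM in flox/+ cells, so its fold change of -1.84 rests on flox/+ library b.

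**Figure D2:**
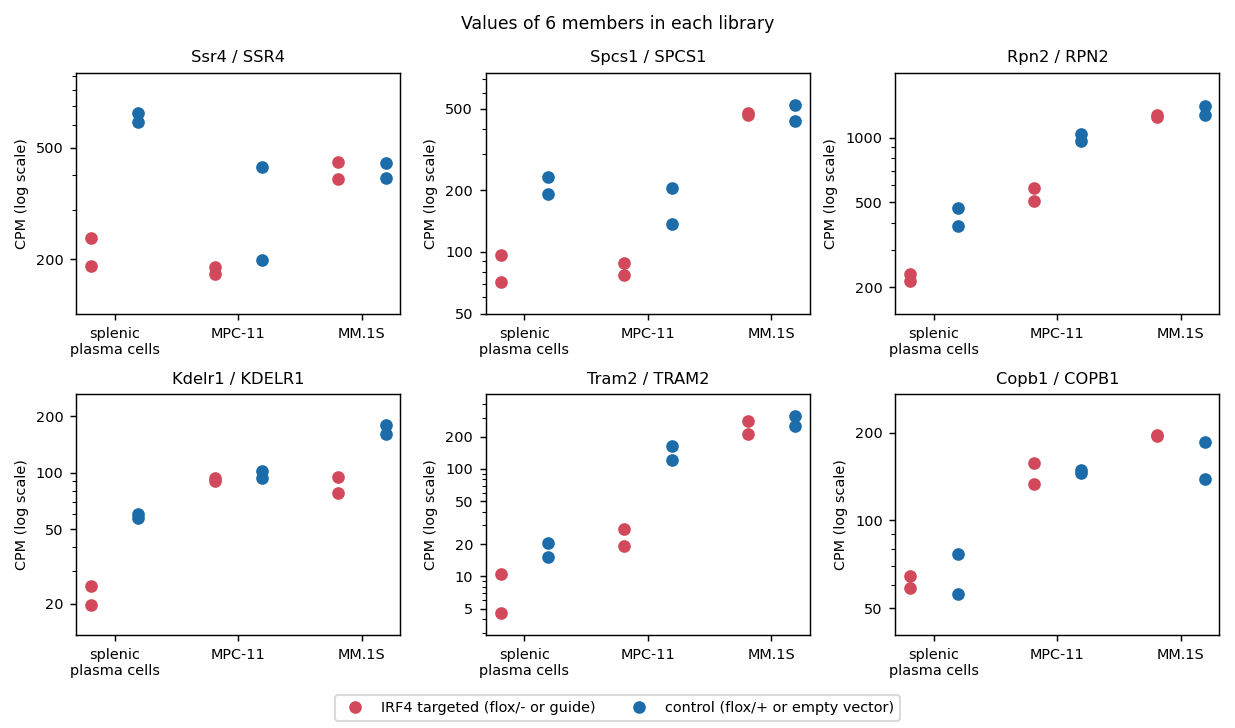
CPM (log axis) of 6 members in each library of the 3 comparisons, IRF4 targeted in red left of its control in blue. Ssr4, Spcs1, Rpn2, Kdelr1 and Tram2 are lower without overlap both in the spleen and in MPC-11; in MM.1S KDELR1 and RPN2 are lower without overlap, COPB1 is higher, and the other 3 overlap.

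How the spleen result reads depends on what counts are scaled to. Immunoglobulin genes took 56.3% and 52.8% of counts in flox/- cells, against 72.2% and 73.4% in flox/+ cells. As a share of all counts, the members took 0.684% and 0.750% in flox/- cells, against 0.669% and 0.690% in flox/+ cells. As a share of counts outside immunoglobulin genes they took 1.57% and 1.59% in flox/- cells, against 2.40% and 2.59% in flox/+ cells. Scaled to library size alone, the median log2 fold change was 0.12 for the members and 0.98 for all genes, and 19 of 49 members were below 0. The members were below the median of all genes by 0.86 under both scalings, by 0.37 with log2 FPKM and by 1.15 without flox/+ library a. The direction against all genes was kept under these settings, and the members' own direction turned with library size alone. Srp14, Sec61a1, Sar1a, Lman2 and Cope, all below 0 by TMM scaling, were above 0 with library size alone. For every 1000 immunoglobulin counts there were 12.1 and 14.2 member counts in flox/- cells, against 9.27 and 9.40 in flox/+ cells. By role, signal peptidase took 0.227% and 0.187% of counts outside immunoglobulin genes in flox/- cells, against 0.354% and 0.489% in flox/+ cells. TRAP took 0.142% and 0.116% in flox/- cells, against 0.271% and 0.266% in flox/+ cells. COPI took 0.162% and 0.200% in flox/- cells, against 0.235% and 0.232% in flox/+ cells.

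**Figure D3:**
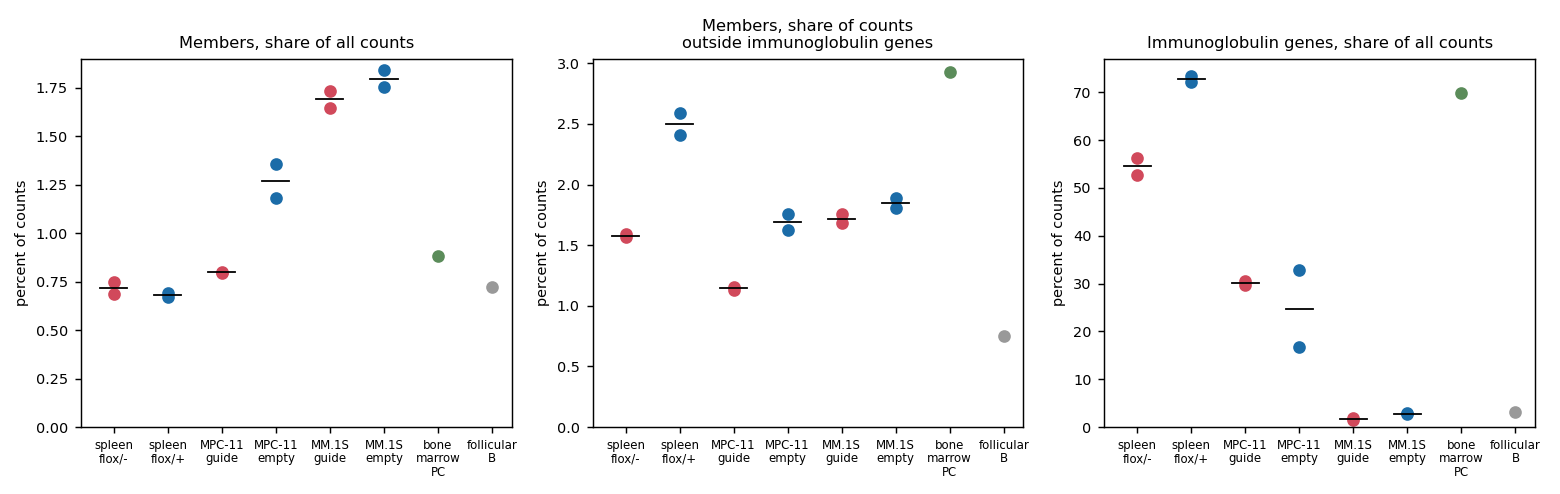
Share of all counts held by the 49 members, share of counts outside immunoglobulin genes held by them, and share of all counts held by immunoglobulin genes, in percent, with 1 point per library and a line at the mean where there are 2. Outside immunoglobulin genes the members hold less in flox/- than in flox/+ cells and less with the guide in MPC-11 than with the empty vector.

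Summed markers of macrophages, T cells, NK cells, B cells and erythroid cells were higher in both flox/- libraries than in both flox/+ libraries. The dendritic cell sum was not, although most of its tested genes were higher. The part of these cells in the result was not tested. Summed macrophage and monocyte markers (10 of 10 genes above 0 in each library, CPM scaled over the 10 mouse libraries) reached 8465 and 810 in flox/- cells, against 631 and 234 in flox/+ cells. T cell markers summed to 188 and 514 CPM in flox/- cells, against 15.2 and 30.0 CPM in flox/+ cells, and B cell markers to 452 and 746 CPM, against 230 and 251 CPM in flox/+ cells. Erythroid markers summed to 917 and 49.6 CPM in flox/- cells, against 49 and 6.15 CPM in flox/+ cells, and NK cell markers to 47.6 and 131 CPM, against 13.6 and 21.9 CPM in flox/+ cells. Dendritic cell markers summed to 915 and 870 CPM in flox/- cells, against 1078 and 1035 CPM in flox/+ cells. By gene, 5 of the 6 tested had a log2 fold change above 0 and 1 below, with a median of 1.27. Without overlap, 4 were higher, against 25.7% of all genes, and 1 lower, against 18.3%. Plasma cell markers, among them the antibody joining chain Jchain, summed to 36288 and 33527 CPM in flox/- cells, against 78824 and 98532 CPM in flox/+ cells. Jchain alone took 2.49% and 2.69% of counts in flox/- cells, against 3.42% and 3.81% in flox/+ cells. Gene by gene, 6 of 8 of these markers had a log2 fold change below 0, against 45.7% of all genes. The other 2 were above 0, and the median was -0.93. In a sorted bulk sample, fewer plasma cells and less RNA per cell cannot be told apart. Without flox/- library 1, which held the highest macrophage sum, the members' median was -0.77. Flox/- library 2, which was kept, had higher T cell, NK cell and B cell sums than library 1. Its macrophage sum also lay above both flox/+ libraries, so leaving out library 1 does not test the part of other cells.

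In MPC-11, 6 members were lower at an unadjusted edgeR p under 0.05, against 2.56% of all genes, and 0 were higher, against 3.49%. Guide libraries lay below both empty vector libraries for 27 of 48 members, against 16.5% of all genes, and above them for 1, Sec63, against 16.9%. A log2 fold change of -1 or lower was seen in 2 members, against 6.89%, and DESeq2 called 0 higher, against 1.03%. Kdelr3 had no count in any of the 4 libraries and was not tested. The members' share of all counts was 0.801% and 0.797% in guide libraries and 1.18% and 1.36% in empty vector libraries. Immunoglobulin genes took 30.5% and 29.7% in guide libraries and 32.8% and 16.7% in empty vector libraries, whose replicates thus differed. Of the 8 B cell markers, 1 or 2 were above 0 with the guide, against 2 with the empty vector, and no NK cell marker was above 0 in either. Summed plasma cell markers, Jchain included, reached 13058 and 10718 CPM in guide libraries and 10586 and 8266 CPM in controls. The sum was thus not lower as in the spleen, but single markers differed in direction. Jchain alone took 1.63% and 1.35% of counts in guide libraries and 1.10% and 1.08% in controls. By gene, 4 of 8 had a log2 fold change below 0 and 4 above, with a median of -0.12. Without overlap, 4 were lower, against 16.5% of all genes, and 3 higher, against 16.9%. DESeq2 called 2 of them lower, against 0.459% of all genes, and 0 higher, against 1.03%.

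Tram2 had the largest difference in MPC-11, at 19.4 and 27.7 CPM with the guide, against 163.8 and 121.7 CPM with the empty vector. Its log2 fold change was -2.60 ± 0.37 (SE, adjusted p = 0.158 by edgeR and 1.2e-08 by DESeq2), and it was the only member that DESeq2 called lower there, against 0.459% of all genes. Rpn2 stood at 583 and 508 CPM with the guide, against 1042 and 962 CPM with the empty vector, and differed by a log2 value of -0.88 ± 0.28 (SE, adjusted p = 0.596 by edgeR). Spcs1 stood at 77.0 and 88.2 CPM with the guide, against 206 and 136 CPM with the empty vector, and differed by a log2 value of -1.05 ± 0.33 (SE, adjusted p = 0.595 by edgeR). In all 3 genes the groups were apart.

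By role the MPC-11 medians were -0.78 for TRAP, -0.68 for signal peptidase, -0.54 for oligosaccharyltransferase, -0.50 for receptors, -0.36 for Sec61 and helpers, -0.33 for COPII, -0.16 for the signal recognition particle and -0.02 for COPI. All 5 signal peptidase members and all 4 TRAP members were lower in both guide libraries. Ssr3 stood at 58.5 and 82.3 CPM with the guide, against 124 and 123 CPM with the empty vector. Ssr2 stood at 245 and 254 CPM with the guide, against 411 and 394 CPM with the empty vector. Ddost stood at 678 and 599 CPM with the guide, against 1362 and 712 CPM with the empty vector, and its lower empty vector library lay near the guide libraries. Of the COPII members 1 of 8 was apart, whereas Sec31a, an outer coat subunit, stood at 303 and 240 CPM with the guide, against 194 and 408 CPM with the empty vector. Lman2 stood at 961 and 963 CPM with the guide, against 1610 and 1206 CPM with the empty vector, and Tmed2 at 44.2 and 44.9 CPM, against 85.3 and 61.6 CPM with the empty vector. Cope stood at 383 and 407 CPM with the guide, against 681 and 528 CPM with the empty vector. The other members with the highest level or smallest p in their role overlapped between the groups: Srp9, Srp68, Sec61a1 and Sec24d. Sec11c, at 156 and 223 CPM with the guide and 422 and 244 CPM with the empty vector, did not.

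In MM.1S the members' median was near 0, and 2 were lower at an unadjusted edgeR p under 0.05, against 4.58% of all genes, with 0 higher, against 5.42%. KDELR1 stood at 94.5 and 78.3 CPM with the guide, against 161.8 and 180.3 CPM with the empty vector, and differed by a log2 value of -0.99 ± 0.21 (SE, adjusted p = 0.259 by edgeR and 0.0012 by DESeq2). It was the member that DESeq2 called lower, against 1.41% of all genes, and it called 0 higher, against 1.54%. No member had a log2 fold change of -1 or lower, against 5.76%. Guide libraries lay below both empty vector libraries for 21 members, against 18.9%, and above both for 3 members, SRP14, TMED10 and COPB1, against 22.4%. SPCS2 stood at 73.0 and 71.2 CPM with the guide, against 101 and 129 CPM with the empty vector, and differed by a log2 value of -0.67 ± 0.22 (SE, adjusted p = 0.377 by edgeR). Both genes were apart between the groups.

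The role medians in MM.1S ran from -0.37 for signal peptidase and -0.25 for TRAP to 0.03 for receptors, with 0.02 for the signal recognition particle. SSR3 stood at 284 and 299 CPM with the guide, against 355 and 416 CPM with the empty vector. SSR4, the leading member in the spleen, stood at 444 and 386 CPM with the guide, against 440 and 389 CPM with the empty vector, so that its log2 fold change was 0.00. SRP14 stood at 383 and 410 CPM with the guide, against 300.1 and 358 CPM with the empty vector. COPB1, a COPI subunit, stood at 195 and 196 CPM with the guide, against 139 and 186 CPM with the empty vector, and both stood apart upward. Of the members with the highest level in their role, SEC61A1 and LMAN2 overlapped between the groups, SRP14 was apart and higher, and SSR2, SEC11C, RPN2, SEC23B and COPE were apart and lower. SEC61A1 stood at 1169 and 1567 CPM with the guide, against 1482 and 1323 CPM in the controls, and RPN2 at 1254 and 1271 CPM, against 1273 and 1400 CPM in the controls. SEC11C stood at 584 and 553 CPM with the guide and 725 and 744 CPM without it. STT3B stood at 242 and 285 CPM with the guide and 333 and 342 CPM without it, and both were apart. Summed plasma cell markers reached 12955 and 13785 CPM in guide libraries and 10527 and 12589 CPM in controls. JCHAIN alone took 0.73% and 0.84% of counts in guide libraries and 0.38% and 0.57% in controls. By gene, 5 of 8 markers had a log2 fold change below 0 and 3 above, with a median of -0.37. Without overlap, 4 were lower, against 18.9% of all genes, and 1 higher, against 22.4%. DESeq2 called 3 of these markers lower, against 1.41% of all genes, and 0 higher, against 1.54%. The members' share of all counts was 1.65% and 1.73% in guide libraries and 1.75% and 1.84% in empty vector libraries.

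Across the comparisons, 33 of the 48 members tested in all 3 had a log2 fold change below 0 in each, a share of 68.8%, against 1333 of 8045 genes (16.6%), by TMM scaling. Scaled to library size alone in each comparison, 13 of 48 (27.1%) were, against 213 of 8045 genes (2.65%). Over members, fold changes in the spleen and in MPC-11 had a Pearson correlation of 0.54 (n = 48), against 0.06 over 9710 genes. The correlation was 0.16 between the spleen and MM.1S (n = 49) and 0.13 between MPC-11 and MM.1S (n = 48); members are not independent and differ in abundance, so this is a description. The difference between the effects in spleen and MPC-11 was tested in 1 edgeR fit over 8 libraries. No member was called, against 0% of 12993 genes, and Kdelr1 alone had an unadjusted p under 0.05, against 6.21% of genes. DESeq2 called 0, against 1.4%. In MPC-11 Kdelr1 stood at 90.3 and 93.7 CPM with the guide, against 94.2 and 103 CPM with the empty vector. Its log2 fold change was -0.10 there and -1.40 in the spleen. The difference in log2 fold change was -1.30 ± 0.39 (SE, adjusted p = 0.542 by edgeR). The human line was not entered, since its genes are another species' and are set beside the mouse values only.

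Bone marrow plasma cells held more of the members than follicular B cells by TMM scaling, with 1 library each and no test. Of 48 members compared, 37 were 2-fold or more higher in bone marrow plasma cells, against 22.4% of 11083 genes, and 0 were 2-fold or more lower, against 22.1%. The median ratio was 4.08 for the members and 0.938 for all genes. Sec24d, a COPII cargo-binding subunit, stood at 274 CPM in bone marrow plasma cells and 5.62 CPM in follicular B cells, a ratio of 48.7. Tram2 stood at 30.2 CPM in bone marrow plasma cells and 1.53 CPM in follicular B cells. Ssr4 stood at 832 CPM in bone marrow plasma cells and 51.2 CPM in follicular B cells. The next ratios were those of Lman1, a cargo lectin, at 14.1 and Kdelr1 at 11. Kdelr3 had 338 counts in bone marrow plasma cells and 0 in follicular B cells. Setting a floor of 3 counts for the follicular library gave a ratio of about 400 by TMM scaling. That value rests on the chosen floor and on the scaling, and is not a lower bound. With library size alone ratios were smaller, such as 13.4 in place of 48.7 for Sec24d. At the other end, Sec11a had a ratio of 0.948, Sec61g of 1.33, Copz1 of 1.63, Srp14 of 1.65 and Srp72 of 1.69. Scaled to library size alone, 10 of 48 were 2-fold or more higher, against 7.71% of all genes, and 6 were 2-fold or more lower, against 75.2%. The median ratio was then 1.12, against 0.259 for all genes. Summed neutrophil markers stood at 624 CPM in bone marrow plasma cells and 9.56 CPM in follicular B cells, with 7 and 2 of 7 genes above 0. Erythroid markers stood at 8.48 CPM in bone marrow plasma cells and 353 CPM in follicular B cells, and the part of either in these ratios was not tested.

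**Figure D4:**
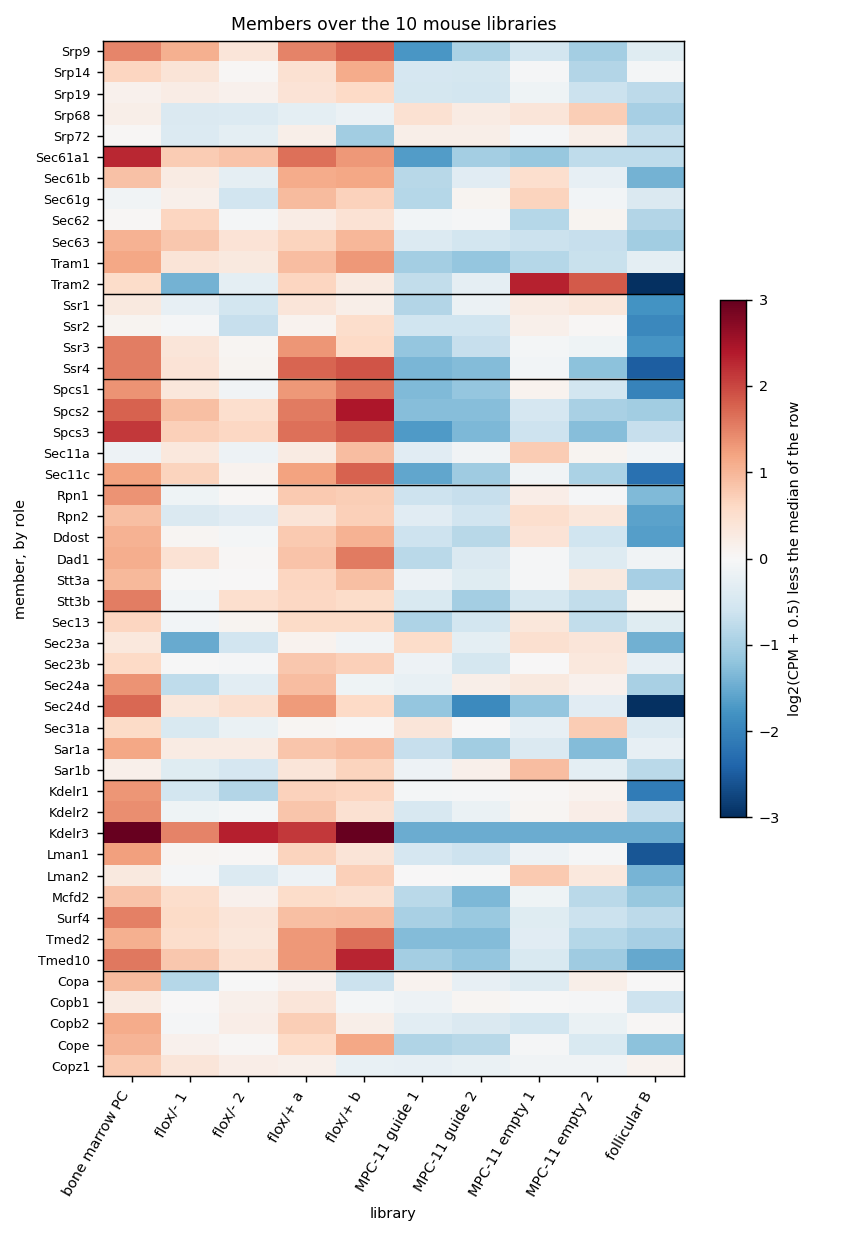
Log2(CPM + 0.5) of each member less the median of its row, over the 10 mouse libraries (CPM scaled over all 10), with roles divided by lines and colours ending at 3 either way. Bone marrow plasma cells and flox/+ plasma cells are mostly red, follicular B cells mostly blue, and Kdelr3 has no count in MPC-11 or in follicular B cells.

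Members with a larger bone marrow over follicular ratio tended to be lower in flox/- cells, with a Pearson correlation of -0.52 over 48 members and -0.26 over 10624 genes. In MPC-11 the values were -0.53 over 48 members and -0.08 over 9262 genes. The points of one plot share the 2 reference libraries, and abundance was not held constant.

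**Figure D5:**
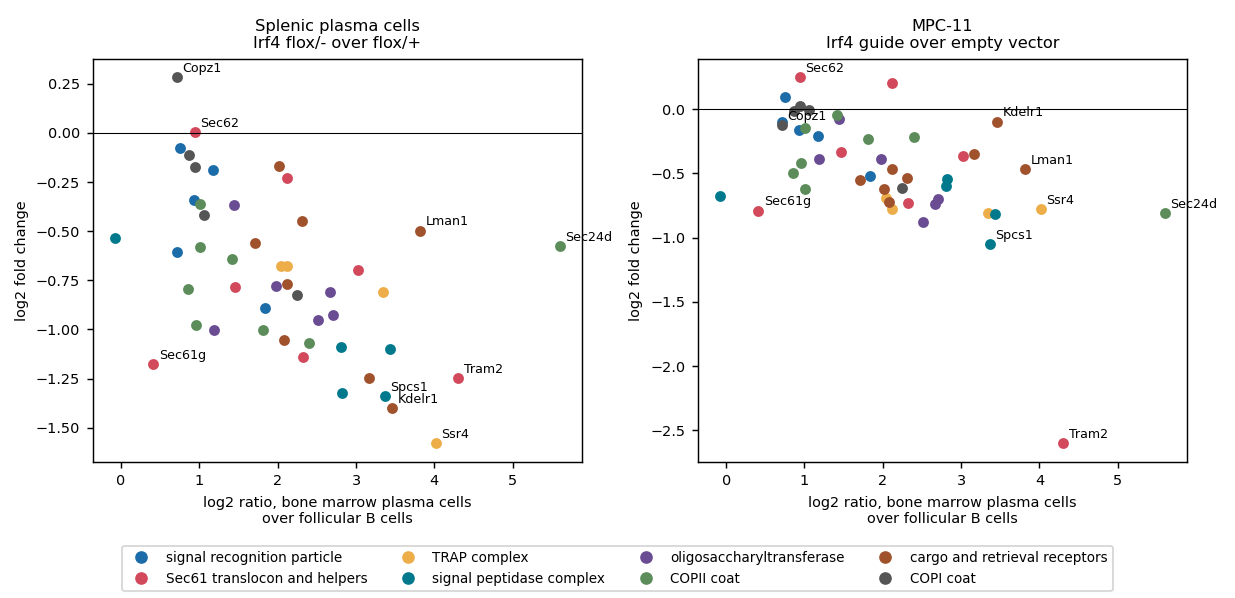
Log2 fold change in splenic plasma cells (left) and in MPC-11 (right) against the log2 ratio of bone marrow plasma cells over follicular B cells, 1 point per member, coloured by role. Ssr4 lies lowest in the spleen and Tram2 in MPC-11; Kdelr3 is left out because it has no count in follicular B cells.

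Per length, by the deposited log2 FPKM, the members' median level was 6.42 in flox/- cells, against 6.89 in flox/+ cells, 5.88 with the guide in MPC-11, against 6.27 with the empty vector, and 6.18 with the guide in MM.1S, against 6.34 with the empty vector. It was 7.15 in bone marrow plasma cells and 5.82 in follicular B cells. Sec11c was the highest member in flox/- cells at 9.82, followed by Cope at 9.70 and Ssr4 at 9.64. In flox/+ cells Ssr4 led at 10.90, followed by Sec11c at 10.62 and Cope at 10.22. The 2 libraries of Sec11c spanned 9.66 to 9.98 in flox/- cells and those of Ssr4 9.56 to 9.72, so the order among these was within their spread. How the authors scaled the FPKM values is not given in the sources used here.

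Other genes of the same pathways had smaller median differences in the mouse comparisons. In the spleen 92 of 115 were below 0 with a median of -0.42, in MPC-11 88 of 114 with -0.24, and in MM.1S 76 of 117 with -0.10. None was called by edgeR in any comparison, and at an unadjusted edgeR p under 0.05 there were 18, 5 and 6 lower, against 3.85%, 2.56% and 4.58% of all genes, and 0, 1 and 0 higher, against 8.63%, 3.49% and 5.42%. The 6 of 117 in MM.1S are near the share over all genes. Ergic1, a protein that cycles between the ER and the Golgi, stood at 89.3 and 104 CPM in flox/- cells, against 235 and 241 CPM in flox/+ cells (DESeq2 adjusted p = 0.0012). Alg2, a mannosyltransferase of the glycan precursor, stood at 26.4 and 30.5 CPM in flox/- cells, against 72.4 and 58.9 CPM in flox/+ cells, and Bet1, a SNARE, at 16.0 and 12.8 CPM, against 32.7 and 34.7 CPM in flox/+ cells. Gmppb, an enzyme that makes the mannose donor, stood at 13.2 and 20.1 CPM with the guide in MPC-11, against 60.9 and 41.9 CPM with the empty vector (DESeq2 adjusted p = 0.0485). Tmed1 and Man1b1 had log2 fold changes of -1.09 and -1.02 there. CCDC47, a translocon partner, stood at 117 and 83.5 CPM with the guide in MM.1S, against 192 and 233 CPM with the empty vector (DESeq2 adjusted p = 0.00227). TMED9 and DPM1 had log2 fold changes of -0.49 and -0.68 there.

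Xbp1, whose product is known to drive many of these genes, stood at 1233 and 1106 CPM in flox/- cells, against 2746 and 3677 CPM in flox/+ cells, a log2 fold change of -1.46 ± 0.35 (SE, adjusted p = 0.275 by edgeR and 0.000757 by DESeq2). In MPC-11 it stood at 2215 and 2165 CPM with the guide, against 2700 and 2622 CPM with the empty vector, and edgeR did not call it. In MM.1S XBP1 stood at 2223 and 2238 CPM with the guide, against 2211 and 2249 CPM with the empty vector. Creb3l2, a membrane-bound factor of the secretory programme, stood at 18 and 22.8 CPM in flox/- cells, against 88.4 and 31.8 CPM in flox/+ cells. It stood at 25.3 and 23.1 CPM with the guide in MPC-11, against 21.2 and 83.9 CPM with the empty vector, and at 63.1 and 70.2 CPM with the guide in MM.1S, against 136 and 79.2 CPM with the empty vector. Its groups were apart in the spleen and in MM.1S and overlapped in MPC-11. Of 12 listed regulators of the secretory programme, 7 had a log2 fold change below 0 in the spleen, against 45.7% of all genes, and 5 above. Their values ran from -1.56 to 1.45. In MPC-11, 7 were below 0, against 51.5%, and 5 above, from -1.83 to 0.57. In MM.1S, 8 of 11 tested were below 0, against 49.3%, and 3 above, from -1.47 to 0.35. The -1.47 matches the CPM given above for IRF4 itself, the gene the guide targets. These counts and ranges therefore need not describe downstream genes alone. Xbp1 and Creb3l2 were both lower in the spleen, and library values of most other regulators are not given, so these 2 do not stand for the list.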

How the data were processed

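Per the submitters' processing notes, Subread 1.6.0, featureCounts and limma were used with builds mm10 and hg38; their order, annotation and strand setting are not given in the sources used here. The authors deposited raw gene counts per library and log2 FPKM values. Mouse promoters are RefSeq's. Rows with no gene symbol (at most 0.306% of counts) were left out.

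A separate edgeR (4.0.16, R 4.3.3) fit was made for the 4 libraries of each comparison (TMM, filterByExpr with a minimum count of 10, quasi-likelihood test, Benjamini-Hochberg adjustment over all genes tested, threshold 0.05). The test of the difference used 8 libraries. Standard errors were derived from edgeR's output, as the absolute log2 fold change divided by the square root of the F statistic. DESeq2 1.42.0, limma 3.58.1 on log2 FPKM, other scalings and filters and leaving out each library were alternatives. CPM over the 10 mouse libraries used 1 TMM scaling. Levels use the deposited log2 FPKM.

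Both flox/+ count columns carry 1 name, so they are called a and b. Members, lists and tests were chosen with earlier results of these data known. Members were picked by the smallest edgeR p and the highest mean CPM in each role, and by calls of edgeR or DESeq2. Members opposite to their role at an unadjusted p under 0.05 and those with the 5 largest and 5 smallest ratios were added. So were the 3 other pathway genes with the smallest p and some regulators. Library values of some of these genes are not given. Other members were named after their values were seen. The scripts were tested on simulated counts. Same-numbered libraries did not deviate together (correlations of -0.08, 0.09 and -0.01), so replicate numbers were not taken to pair them. Replicates differed beyond sampling noise in each of the 6 groups of 2.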

Additional observations from a re-analysis of the deposited data

Results flagged for a closer look

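In 4 members both libraries of one comparison moved one way and both libraries of another the opposite way. Copz1 had a log2 fold change of 0.28 in splenic plasma cells and -0.12 in MPC-11; the test of that difference over 8 libraries gave an edgeR adjusted p = 1.00. Srp14 had -0.61 in splenic plasma cells and 0.27 in MM.1S by TMM scaling; with library size alone it had 0.29 in splenic plasma cells, the same direction as the 0.28 of MM.1S. Tmed10 had -1.25 in splenic plasma cells and 0.13 in MM.1S. Sec63 had 0.20 in MPC-11 and -0.30 in MM.1S. The differences that involve MM.1S were not tested, and none of these genes passed an adjusted p of 0.05 by edgeR in either comparison.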

How the results depend on the processing

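The members' median stayed below that of all genes in each comparison and setting, by 0.37 to 1.15 in the spleen, 0.36 to 0.60 in MPC-11 and 0.05 to 0.21 in MM.1S; the cause of what follows was not tested. In the spleen, library size alone gave a members' median of 0.12 with 19 members below 0, and Srp14 0.29, Sec61a1 0.19, Sar1a 0.26, Lman2 0.34 and Cope 0.081; log2 FPKM gave -0.55. Calls were 8 members and 635 genes by DESeq2, and 5 genes in 1 fit over the 10 mouse libraries. The members' log2 ratio of shares was 0.08 of all counts and -0.66 outside immunoglobulin genes. In MPC-11, DESeq2 called 1 member and 159 genes, no filter 1 and 32, library size alone 0 genes with a median of -0.65, log2 FPKM 0 genes and the 10-library fit 6 genes. In MM.1S, DESeq2 called 1 member and 374 genes, no filter 1 and 289, and log2 FPKM 9 genes, with SEC61A1 at 0.010. Library size alone left 10 of 48 members 2-fold or more higher in bone marrow plasma cells (7.71% of all genes) and 6 lower (75.2%), and, in an alternative chosen after seeing the data, 13 members below 0 in all 3 comparisons. With replicate number as a block, log2 FPKM gave a splenic median of -0.55 with 1 member and 384 genes called. The same block on counts called 0 genes in MPC-11, and 1 member and 208 genes in MM.1S.

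Leaving out 1 library at a time, which leaves a group of 1 assumed to vary like the other group, gave medians of -0.82 to -0.69 in the spleen, -0.55 to -0.32 in MPC-11 and -0.18 to -0.06 in MM.1S. Genes called in MPC-11 were 37, 25, 1 and 24 without guide 1, guide 2, empty vector 1 and empty vector 2, the last with 1 member, Tram2 (-2.78). In MM.1S they were 2, 0, 966 and 117 in the same order, with 2 members, SPCS2 (-0.84) and KDELR1 (-1.06), without empty vector 1. Sec31a reached 0.0087 without guide library 2 and 0.50 without empty vector library 2, where Srp68 was 0.049; SEC61A1 was 0.16 without guide library 1 and 0.051 without empty vector library 1. The difference between spleen and MPC-11, members less all genes, ran from -0.59 to -0.30. Groups of 2 limit every test.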
